A study of Homo sapiens with 18 samples.

Results

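GNAS, MAPK6, PTMA, MKRN2, SAP18, CCDC12 and POLR1H are 7 of the 13051 genes for which readthrough reads were counted in nascent RNA of K562 cells, a line derived from chronic myeloid leukaemia in blast crisis that carries the Bcr-Abl1 fusion kinase. They were selected on their readthrough reads in cells treated with JTE-607 against untreated cells. By the rank of the edgeR fit of that comparison they hold 7 of the first 13 places among 969 genes tested. They are not the genes with the most added reads, since by added reads per library read they ranked from 18 (PTMA) to 98 (MKRN2) of 13051. The transcripts counted were ENST00000371100 for GNAS, ENST00000261845 for MAPK6, ENST00000409115 for PTMA, ENST00000170447 for MKRN2, ENST00000621421 for SAP18, ENST00000425441 for CCDC12 and ENST00000376785 for POLR1H.

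The study asked whether inhibiting Bcr-Abl1 with imatinib changes transcription past gene ends, and JTE-607 was its control for failed cleavage. RNA was isolated from chromatin, depleted of poly(A)+ RNA and rRNA, and sequenced as single long molecules by PacBio sequencing, in 6 groups of 3 biological replicates. CTRL cells were untreated, JTE 1h cells received 5 µM JTE-607 for 1 h, and KCl 45min cells received 110 mM KCl, a hyperosmotic shock, for 45 min. IM 1h and IM 18h cells received 1 µM imatinib for 1 h or 18 h, and CTRLim cells were the untreated controls of the imatinib libraries. All groups are the same line, with no modified allele. The study states that the CTRLim libraries were prepared concurrently with the imatinib libraries, and these form 1 set. CTRL, KCl 45min and JTE 1h are taken here as the other set. That they were prepared together is not stated, and they include libraries of shorter and of longer reads. Between the sets a treatment and the library set cannot be told apart.

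Pre-mRNA 3′ ends are made by an endonuclease, CPSF73 (gene CPSF3), which cuts downstream of a polyadenylation signal (PAS), usually AATAAA or ATTAAA, within a complex that also reads a G- and T-rich stretch after the cut. The polymerase is released after the cut, and when cleavage fails or is delayed the transcript runs on as transcriptional readthrough. JTE-607 is a prodrug whose active form blocks CPSF73. A read was counted as readthrough when its 3′ end lay more than 100 nt beyond the annotated end of the last exon. The readthrough level used below is the number of such reads per 1000000 reads of the library (RPM), so it depends on how much a gene is transcribed as well as on how often its transcript is cut.

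The libraries held 8422 to 57982 readthrough reads each. At this depth a library with no read of a gene allows a level of up to 7.31 to 11.6 RPM in CTRL and 2.61 to 6.53 RPM in JTE 1h, where 3 reads are taken as the limit that a count of 0 leaves. In CTRL, 3.32 to 3.55% of library reads were readthrough reads. In JTE 1h the share was 3.06% in replicate 1 and 5.40% and 5.05% in replicates 2 and 3, so that replicate 1 stood apart from the other two. It is also the JTE 1h library that the study lists with shorter reads, together with CTRL 1 and 2 and KCl 45min 1. PacBio RS II and Revio instruments were both used, and which library ran on which is not given in the sources used here. Of the erythroid genes that K562 cells express, HBG1, HBE1 and TAL1 had 4159, 2768 and 408 readthrough reads and were read in all 18 libraries, GATA1 had 38 reads in 14 libraries and HBG2 was not matched, while EPCAM, a marker of epithelium, had 4 reads.

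The 30 bases that begin at a match to AATAAA or ATTAAA near each annotated end are shown first. A PAS directs CPSF73, and whether these matches serve as one was not measured. The bases were read from GRCh38 on the strand of the gene, with capitals marking the AATAAA or ATTAAA nearest the end. The run of CCDC12 holds neither and shows the last 30 bases of its transcript instead.
GNAS: ATTAAAtgtgagcaaagaatgatgggactc
MAPK6: AATAAAaattttatgtgccaattactttgt
PTMA: AATAAAcaggaattttattttgctgagttg
MKRN2: ATTAAAacccaaatcatcaagaaaacctgt
SAP18: AATAAAtaagtagtcatcatgacagcatct
CCDC12: aaacaagtaaacccctgtgtgtggcagaaa
POLR1H: ATTAAAgttatatttttctataagaccctg
The runs lie at chr20:58911174-58911203 (GNAS, plus strand), chr15:52067352-52067381 (MAPK6, plus strand), chr2:231713502-231713531 (PTMA, plus strand), chr3:12583689-12583718 (MKRN2, plus strand), chr13:21149059-21149088 (SAP18, plus strand), chr3:46921726-46921755 (CCDC12, minus strand) and chr6:30064877-30064906 (POLR1H, plus strand). All 7 begin within the last exon.

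The matches began 19 (GNAS), 24 (MAPK6), 25 (MKRN2), 26 (SAP18), 33 (POLR1H) and 50 bases (PTMA) from the annotated end, counting the last base as 1. Either hexamer, searched on the gene's strand in the last 60 bases, was present in 6 of 7 genes, in 75.2% of the 12704 annotated transcripts of the table and in 70.7% of the 940 annotated transcripts tested in JTE 1h vs CTRL. In the 30 bases after the annotated end, G and T together made up 50 to 73.3% of the letters, with a median of 63.3% against 60% over the 12704 transcripts. The 7 ends therefore show the letters of common gene ends in these windows, and a match or its lack says nothing about binding of the complex.

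The gene models differ widely in size and surroundings (GENCODE 44). GNAS, the alpha subunit of the stimulatory G protein, is encoded in an imprinted locus where several first exons share the last ones, and the counted transcript has 13 exons on chromosome 20. MAPK6, the atypical MAP kinase ERK3, has 6 exons, and its end is overlapped on the opposite strand by a long noncoding RNA. PTMA (prothymosin alpha, an acidic nuclear protein that binds histones) spans 5027 nt in 5 exons, and processed copies of it are spread over the genome, so its count depends on how uniquely reads were placed. MKRN2 is a makorin RING ubiquitin ligase. Its gene model runs 2495 nt beyond the counted end, so that reads of a longer MKRN2 transcript and readthrough reads cannot be told apart there. SAP18, a subunit of the Sin3 deacetylase complex and of the ASAP complex on spliced RNA, has 4 exons and CCDC12, a spliceosomal protein associated with the Prp19 complex, has 9. POLR1H, the small subunit of RNA polymerase I that takes part in RNA cleavage by the polymerase, spans 3647 nt and is followed on the same strand by PPP1R11 after 1800 nt.

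In JTE 1h the 7 genes together had 39, 128 and 283 reads in replicates 1 to 3, and in CTRL 8, 13 and 7. As levels these were 84.9, 248.9 and 246.6 RPM in JTE 1h and 22.2, 31.7 and 27.1 RPM in CTRL. Each JTE 1h library lay above each CTRL library, and replicate 1 was about level with the untreated CTRLim libraries, which ran from 54.8 to 100.1 RPM. The reads of the 7 genes made up 0.277, 0.461 and 0.488% of all readthrough reads in JTE 1h and 0.0665 to 0.0955% in CTRL, so they were a larger share of readthrough also in JTE 1h replicate 1, where readthrough as a whole was not raised. These values chose the genes and are a description, with no test.

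**Figure D1:**
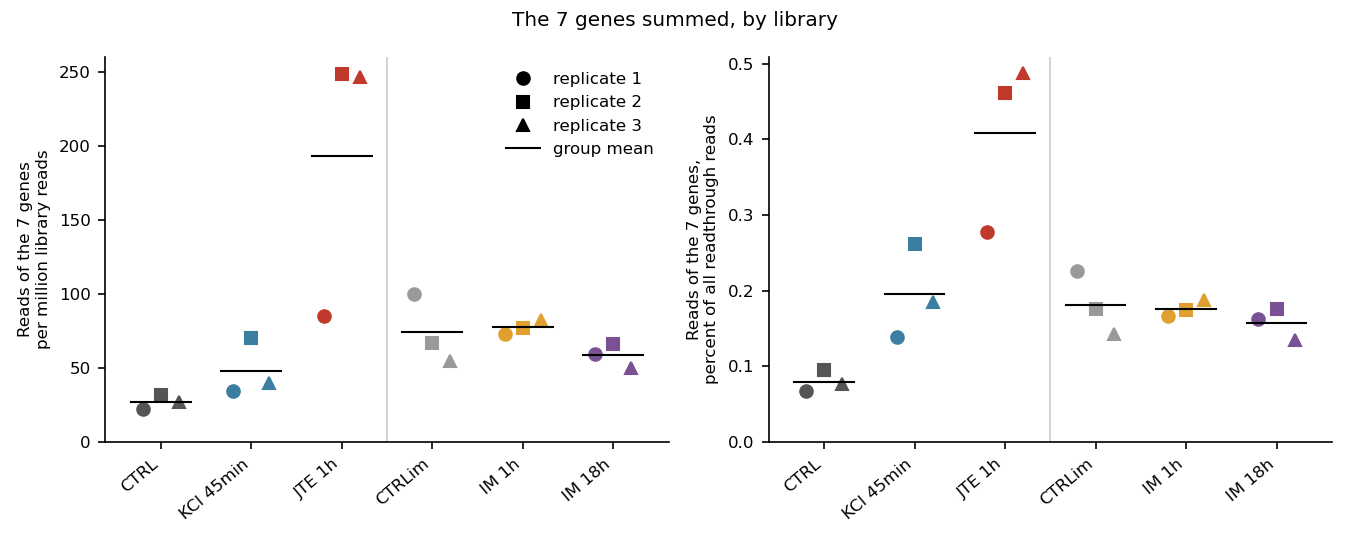
Readthrough reads of the 7 genes summed in each of the 18 libraries, per 1000000 library reads (left) and as a percent of all readthrough reads (right); symbols mark replicates, black bars group means, and the grey line parts the library sets. JTE 1h replicates 2 and 3 sit at 248.9 and 246.6 RPM and replicate 1 at 84.9 RPM, while the CTRL libraries reach at most 31.7 RPM.

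GNAS had 7, 14 and 28 reads in JTE 1h and 2, 0 and 0 in CTRL, or 22.3 ± 6.27 and 1.85 ± 3.20 RPM (SD, n = 3). MAPK6 had 3, 13 and 26 reads in JTE 1h and 0, 0 and 1 in CTRL, or 18.2 ± 10.2 and 1.29 ± 2.23 RPM. These signalling genes were almost without readthrough reads in CTRL, and all their JTE 1h levels were above all CTRL levels.

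PTMA had the most reads of the 7, with 5, 24 and 85 in JTE 1h and 4, 3 and 1 in CTRL. Its level was 43.9 ± 31.7 RPM against 7.42 ± 3.61 RPM, and JTE 1h replicate 1 (10.9 RPM) lay inside the CTRL range of 3.87 to 11.1 RPM. SAP18 was split in the same way, with 0, 25 and 47 reads in JTE 1h and 1, 0 and 2 in CTRL, or 29.9 ± 26.1 and 3.50 ± 3.92 RPM. For PTMA and SAP18 the high level thus rests on JTE 1h replicates 2 and 3.

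CCDC12 had 8, 19 and 31 reads in JTE 1h and 1, 4 and 0 in CTRL, or 27.1 ± 9.77 and 4.17 ± 5.02 RPM. POLR1H had 9, 21 and 46 reads in JTE 1h and 0, 5 and 2 in CTRL, or 33.5 ± 12.1 and 6.64 ± 6.16 RPM. MKRN2 had 7, 12 and 20 reads in JTE 1h and 0, 1 and 1 in CTRL, or 18.7 ± 4.19 and 2.10 ± 1.96 RPM. The JTE 1h libraries of these 3 genes did not overlap the CTRL libraries, and MKRN2 had the tightest JTE 1h values, between 15.2 and 23.3 RPM.

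**Figure D2:**
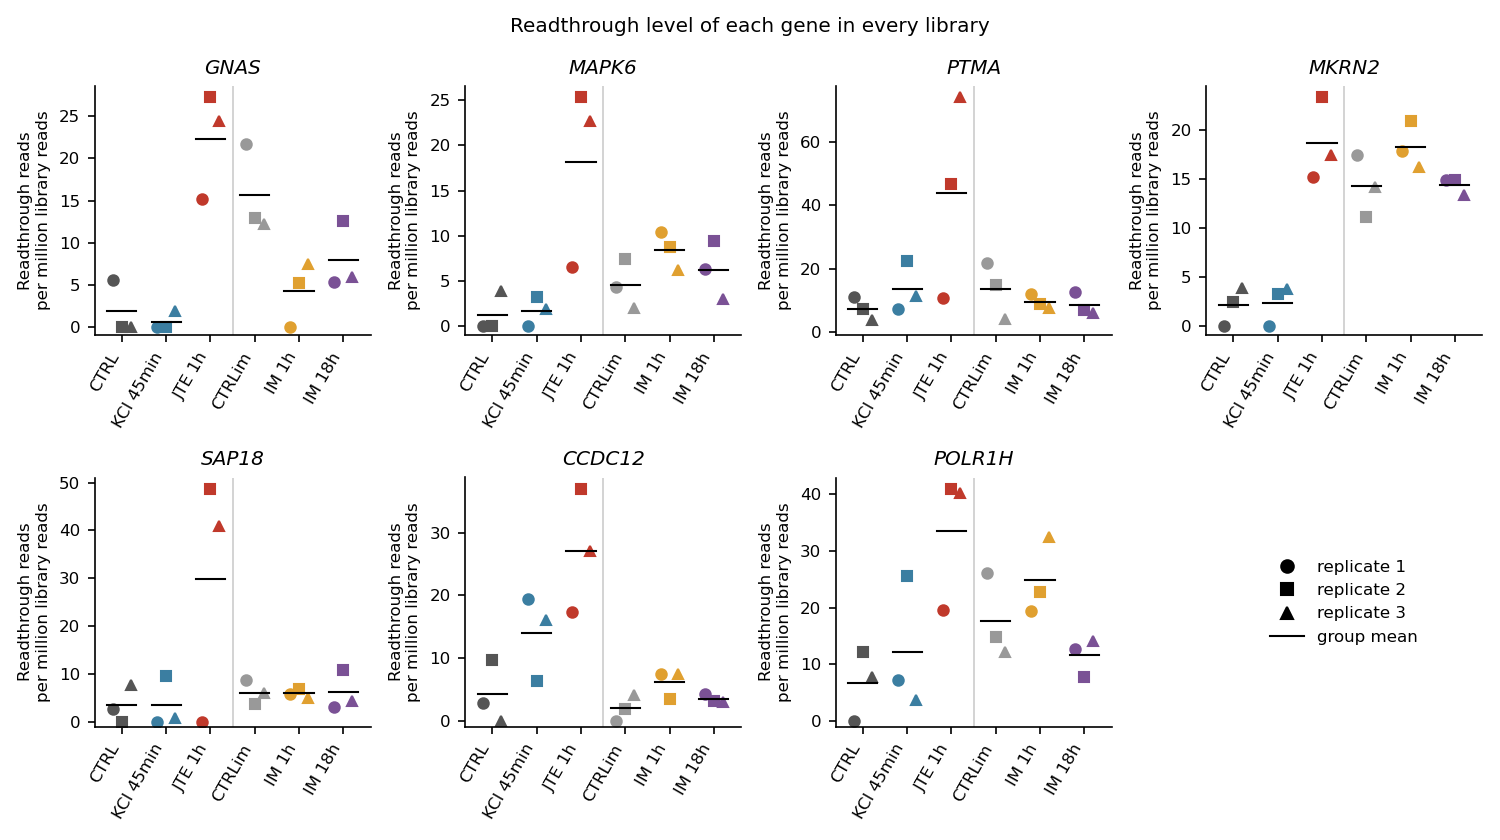
Readthrough level (readthrough reads per 1000000 library reads, linear axis that differs between panels) of each gene in every library; symbols mark replicates, black bars group means, and the grey line parts the library sets. The genes were chosen on JTE 1h against CTRL, and the JTE 1h mean is the highest of the 6 groups in all 7 panels. SAP18 and PTMA have JTE 1h replicate 1 among the control values.

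All JTE 1h libraries were above all CTRL libraries in 5 of the 7 genes, the exceptions being PTMA and SAP18. The same held for 12.0% of the 969 genes tested, and nothing is read from this, since the contrast chose the genes. The ratio of the pooled levels, JTE 1h over CTRL, lay between 5.27 for POLR1H (95% exact interval 2.44 to 13.6) and 20.4 for MAPK6 (3.47 to 824.2), where CTRL had 1 read in all. It was 11.9 for GNAS (3.12 to 101), 11.7 for SAP18 (3.83 to 57.8), 9.47 for MKRN2 (2.45 to 80.9), 6.92 for PTMA (3.39 to 16.4) and 5.63 for CCDC12 (2.28 to 18.0). The intervals cover counting error alone and not the spread between replicates. They are widest for MAPK6, GNAS and MKRN2, which had at most 2 reads in the 3 CTRL libraries together, so the order of the 7 folds is not resolved.

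The fitted log2 fold changes of the 7 genes, JTE 1h minus CTRL, ran from 2.29 (POLR1H) to 3.94 (MAPK6) with a median of 3.10, beside a median of 0.49 over the 969 genes tested. With TMM scaling, which removes a shift common to all genes, these medians were 2.67 and 0.029. Without JTE 1h replicate 3, the deepest library, only 3 of the 7 genes kept at least 30 reads over the 5 libraries left, and their median was 2.12. By fitted log2 fold change the 7 genes ranked from 1 (MAPK6) to 30 (POLR1H) of 969, with other genes between them. Next below POLR1H, at rank 31, was MYL12A, a myosin light chain, at 2.27 with 0, 3 and 4 reads in CTRL and 8, 23 and 47 in JTE 1h. By added level, PHGDH of serine synthesis was next above PTMA at 37.5 RPM and HSP90AB1, a chaperone, next below MKRN2 at 16.5 RPM.

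Within the libraries with shorter reads, the 7 genes summed to 84.9 RPM in JTE 1h replicate 1 and to 27.2 RPM in CTRL 1 and 2 pooled, a ratio of 3.12. Within those with longer reads, they summed to 247.3 RPM in JTE 1h replicates 2 and 3 pooled and 27.1 RPM in CTRL 3, a ratio of 9.14. The level was higher in JTE 1h for 6 of 7 genes in the first case, SAP18 being the exception, and for 7 of 7 in the second. Both cases use the libraries that chose the genes, so these counts are a description and lend no support. PTMA was higher in the first case at 10.9 against 9.08 RPM, and CTRL 3 held 7 reads of the 7 genes in all. A longer read can reach farther past a gene end, and the part of read length in the levels was not tested.

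**Figure D3:**
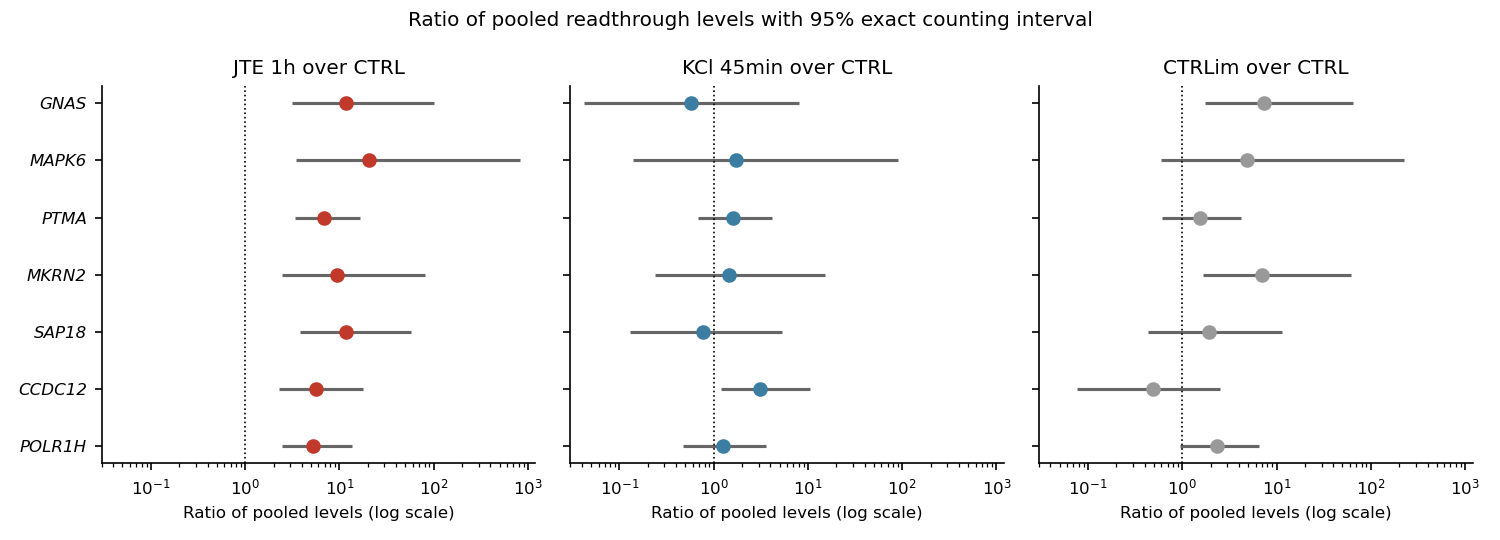
Ratio of pooled readthrough levels (log axis) for each gene, JTE 1h over CTRL (left), KCl 45min over CTRL (middle) and CTRLim over CTRL (right); points are ratios, lines 95% exact counting intervals, and the dotted line marks a ratio of 1. On the left, in the comparison that chose the genes, all 7 ratios lie above 1, from 5.27 to 20.4. KCl 45min ratios lie between 0.579 and 3.12.

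KCl 45min served as another stress in the set taken here to hold CTRL and JTE 1h. It shares its CTRL libraries with the comparison that chose the genes. The 7 genes summed to 34.1, 70.1 and 39.8 RPM in KCl 45min, all above the CTRL libraries, and below each JTE 1h library. CCDC12 had 8, 2 and 17 reads in KCl 45min, or levels of 19.5, 6.37 and 16.1 RPM, against 4.17 ± 5.02 RPM in CTRL. Its pooled ratio of KCl 45min over CTRL was the highest of the 7 at 3.12 (95% exact interval 1.19 to 10.4), and that of JTE 1h over KCl 45min was 1.80 (1.12 to 2.96).

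PTMA had 3, 7 and 12 reads in KCl 45min and a ratio to CTRL of 1.59 (0.682 to 4.13), and POLR1H had 3, 8 and 4 reads and a ratio of 1.24 (0.476 to 3.59). GNAS (0, 0 and 2 reads), MAPK6 (0, 1 and 2), MKRN2 (0, 1 and 4) and SAP18 (0, 3 and 1) had 2 to 5 reads in the 3 KCl libraries together, which is too few to tell a change from none. For no gene were all KCl 45min libraries above all CTRL libraries, a pattern that 7.67% of the 378 genes with at least 30 reads showed. Only PTMA and CCDC12 reached 30 reads in this comparison, with fitted log2 fold changes of 0.71 and 1.58 beside a median of -0.39 over the 378 genes. Most of these reads were in KCl 45min, 22 for PTMA and 27 for CCDC12 against 8 and 5 in CTRL. The minimum thus kept genes that are high in KCl 45min, and nothing is read from these folds. At a minimum of 1 read, with all 7 genes in the fit, their median was 0.54.

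The untreated cells of the imatinib set, CTRLim, had higher levels of several of the 7 genes than CTRL. GNAS had 5, 7 and 6 reads in CTRLim, or 15.6 ± 5.31 RPM, and MKRN2 had 4, 6 and 7, or 14.2 ± 3.15 RPM. POLR1H had 6, 8 and 6 reads, or 17.7 ± 7.39 RPM. In these 3 genes all CTRLim libraries were above all CTRL libraries, with ratios of 7.34, 6.93 and 2.33, beside 25.8% of the 472 genes with at least 30 reads in those 6 libraries, a minimum that none of the 3 reached. MAPK6 (1, 4 and 1 reads), PTMA (5, 8 and 2) and SAP18 (2, 2 and 3) overlapped CTRL, with ratios of 4.90, 1.53 and 1.90. CCDC12 went the other way, with 0, 1 and 2 reads and a ratio of 0.490 (0.0760 to 2.52). Both groups are untreated, so library set and culture cannot be told apart here, and a low CTRL level was part of how the genes were chosen. Over CTRLim in place of CTRL the summed level of the 7 genes in JTE 1h was 3.11-fold (2.47 to 3.97), against 7.80-fold (5.33 to 11.9) over CTRL. The single ratios over CTRLim were smallest for MKRN2 (1.37, 0.754 to 2.57) and GNAS (1.62, 0.927 to 2.95) and largest for CCDC12 (11.5, 3.75 to 57.4).

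Ordered by mean level, JTE 1h was the highest of the 6 groups for all 7 genes. The genes were chosen on JTE 1h against CTRL, so nothing is read from the places of these groups. For MKRN2 the JTE 1h mean was 18.7 RPM beside 18.3 RPM in IM 1h. The lowest was CTRL for MAPK6, PTMA, MKRN2 and POLR1H, KCl 45min for GNAS and CTRLim for CCDC12. For SAP18, CTRL and KCl 45min shared the lowest mean of 3.50 RPM. Neighbours in these orders overlapped in all genes but MKRN2, where IM 1h lay above IM 18h and CTRLim above KCl 45min with no overlap. JTE 1h itself overlapped the group next to it in all 7 genes.

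Imatinib blocks the Bcr-Abl1 kinase on which K562 cells depend. The contrast that chose the genes, JTE-607 against untreated cells, does not include the imatinib-treated libraries. The choice was made with earlier results of these data known. In IM 1h vs CTRLim, 3 genes had enough reads for the edgeR quasi-likelihood test and 0 of them passed an adjusted p of 0.05 (Benjamini-Hochberg), beside 1.52% of 988 genes tested. None had an unadjusted p under 0.05 and DESeq2 called 0 as well. The median log2 fold change over the 988 genes was 0.19, and 0.011 with TMM scaling. POLR1H had 13, 13 and 26 reads in IM 1h and a log2 fold change of 0.66 (SE 0.390), MKRN2 had 12, 12 and 13 reads and 0.42 (SE 0.433), and PTMA had 8, 5 and 6 reads and -0.36 (SE 0.520), with adjusted p from 0.441 to 0.792. MAPK6 with 7, 5 and 5 reads, SAP18 with 4 in each library and CCDC12 with 5, 2 and 6 were under the minimum, and their IM 1h levels overlapped CTRLim.

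GNAS stood under the minimum of 30 reads in that comparison, with 0, 3 and 6 reads in IM 1h. All 3 IM 1h levels, 0 to 7.47 RPM, were below all CTRLim levels, 12.2 to 21.8 RPM, a pattern found in 5.47% of the 988 genes tested. With the minimum lowered to 10 reads its log2 fold change was -1.65 (SE 0.580) with an adjusted p of 0.258 from edgeR. The level of GNAS was therefore lower in all 3 libraries, but the difference did not pass the test over all genes.

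In IM 18h vs CTRLim 5 genes were tested and 0 were called, beside 14.1% of 1386 genes. None had an unadjusted p under 0.05, and DESeq2 called 0. GNAS had 5, 16 and 8 reads in IM 18h and a log2 fold change of -0.81 (SE 0.479), the largest of the 5 in size. The others lay between -0.54 for PTMA and 0.20 for SAP18, and adjusted p ran from 0.277 to 0.929. PTMA had 12, 9 and 8 reads in IM 18h and SAP18 3, 14 and 6, with most SAP18 reads in replicate 2. MAPK6, with 6, 12 and 4 reads in IM 18h, and CCDC12, with 4 in each library, stayed under the minimum.

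Between the imatinib times POLR1H fell. It had 12, 10 and 19 reads in IM 18h, or 11.6 ± 3.30 RPM, against 24.8 ± 6.79 RPM in IM 1h, and all 3 IM 18h levels (7.83 to 14.1 RPM) were below all IM 1h levels (19.3 to 32.4 RPM). The log2 fold change was -1.12 (SE 0.347, edgeR, adjusted p = 0.0141). POLR1H was the 1 gene called of 6 tested, beside 18.3% of 1720 genes, most of them lower. The median log2 fold change over those genes was -0.30, and with TMM scaling POLR1H was at -0.83 with an adjusted p of 0.103. The call was also lost without IM 1h replicate 3 (-0.85, adjusted p = 0.169) and without IM 18h replicate 2 (-0.89, adjusted p = 0.0760). Over all 15 alternatives it was kept in 8, with adjusted p from 0.0103 to 0.465 and a log2 fold change between -1.32 and -0.81.

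MKRN2 had 14, 19 and 18 reads in IM 18h and was, with POLR1H, 1 of 2 tested genes whose IM 18h libraries were all below the IM 1h libraries, beside 26.3% of the 1720 genes. Its log2 fold change was -0.34 (SE 0.352, adjusted p = 0.544). GNAS stood at 0.87 (SE 0.563, adjusted p = 0.304), with 0.31 without IM 1h replicate 1, which had no GNAS read, and 1.69 without IM 1h replicate 3. The others, MAPK6, PTMA and SAP18, lay at -0.42, -0.18 and 0.13.

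**Figure D4:**
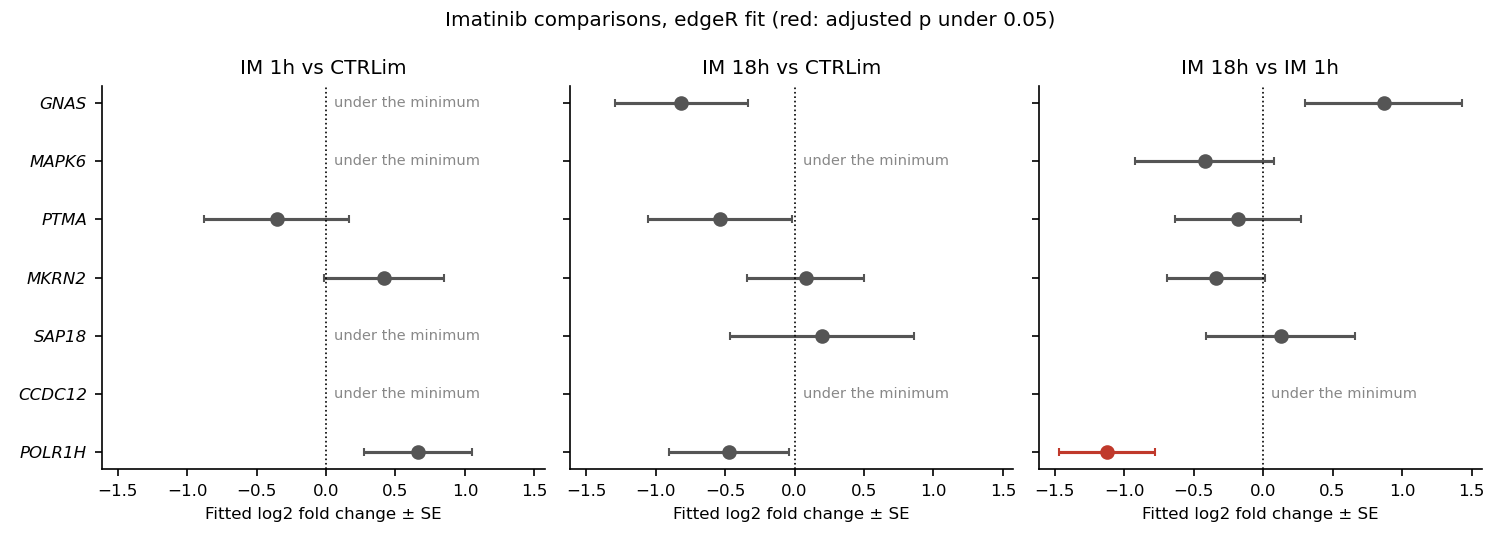
Fitted log2 fold change with its standard error for each gene in the imatinib comparisons (edgeR, 6 libraries each); red marks an adjusted p under 0.05 and grey text the genes with fewer than 30 reads. POLR1H in IM 18h vs IM 1h (-1.12) is the 1 red point of 14.

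Over the 18 libraries, the levels of the 7 genes on a log2 scale (0.5 reads added) correlated with each other with Pearson's r from -0.073 to 0.82 over 21 pairs, median 0.49. Without the JTE 1h libraries the median was 0.17 over 15 libraries and the range -0.72 to 0.84. All points share library depth and read length, and genes with few reads share zeros, so these values are a description. Among 373 other genes with at least 180 reads, the profile most like POLR1H was that of TIGD1 (r = 0.88) and then H2AZ1, the histone variant H2A.Z (0.85). For MKRN2 it was RPL7 of the large ribosomal subunit (0.88), for SAP18 the splicing factor SRSF6 (0.87), for MAPK6 RSL24D1 of ribosome assembly (0.74), for PTMA the actin-disassembly factor WDR1 (0.74), for CCDC12 the stress factor DDIT3 (0.68) and for GNAS the ribosomal protein gene RPS19 (0.67). MRPL46, a mitochondrial ribosomal protein gene, was among the 3 nearest of both PTMA (0.66) and POLR1H (0.81).

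Genes downstream of the 7 ends had few reads of their own. PPP1R11, the next gene after POLR1H, had 0, 2 and 4 reads in JTE 1h and 3, 1 and 0 in CTRL, fewer than POLR1H in each JTE 1h library. NELFCD, 70016 nt after GNAS, had 0, 1 and 7 reads against 0 in each CTRL library, and COPS7B, 68120 nt after PTMA, had 1, 0 and 9 against 1, 0 and 0. MRPL57 after SAP18 had 0, 1 and 0 reads in JTE 1h. A gene on the same strand within 10 kb followed 1 of the 7 ends (POLR1H), against 43.2% of the 940 annotated genes tested in JTE 1h vs CTRL.

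The genes that work with these 7 were set beside them in JTE 1h vs CTRL, as 8 lists of 131 genes chosen by function, of which 120 were in the table and 18 had at least 30 reads. None was called by edgeR (0 of 18, beside 0.103% of 969 genes called higher), 2 had an unadjusted p under 0.05 beside 108 of the 969 genes, and DESeq2 called 0. Of the 18, 16 had a fold change above 0, as did 752 of the 969 genes tested, and their median log2 fold change was 0.41 against 0.49 over all.

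Of the 24 cleavage and polyadenylation genes 3 were tested. PCF11, a termination factor that binds the polymerase tail, had 0, 15 and 29 reads in JTE 1h and 0, 1 and 1 in CTRL, a log2 fold change of 3.13 (SE 1.07, adjusted p = 0.226 from edgeR). CPSF7 and CPSF4, subunits of cleavage factors, stood at 0.88 and 0.34. CPSF3, which encodes the target of JTE-607, had 7 readthrough reads in all libraries and was not tested, and its readthrough does not check the treatment.

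Of the RNA polymerase I genes, 5 were tested beside POLR1H. UBTF, the activator of rRNA gene transcription, had 4, 21 and 53 reads in JTE 1h and 4, 1 and 2 in CTRL, a log2 fold change of 2.21 (SE 0.738, adjusted p = 0.226 from edgeR), and POLR1E and TAF1D stood at 0.81 and 0.34. Like PTMA and SAP18, PCF11 and UBTF had their added reads in JTE 1h replicates 2 and 3. The 5 tested genes for acidic histone-binding proteins, the list of PTMA, had a median of 0.45, with NASP at 1.23 and SET at 0.45. MAPKAPK3, of the MAP kinase list, stood at 0.35. Among partners of SAP18, HDAC1 stood at 0.060 and RBBP4, a histone chaperone, at -1.24, and PPIL1, the 1 tested gene of the Prp19-associated list of CCDC12, at 0.35. No gene of the G protein list (25 in the table) or the makorin list (1 in the table) had 30 reads, so the readthrough of GNAS and MKRN2 could not be set beside that of their families.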

How the data were processed

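The authors removed adapters with cutadapt, mapped long reads to GRCh38.p14 with minimap2, collapsed duplicates by molecular identifiers, and removed polyadenylated reads, non-unique reads and splicing intermediates. Reads were assigned by the authors to the last exon of 1 transcript per gene. The deposited values are whole-number counts of readthrough reads, neither normalized nor pooled. The labels give the molecule as polyA RNA, although the protocol depletes it. Gene body reads were not analysed here, so the share of reads that read through a given gene was not computed.

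Library size was the filtered read total listed by the study. edgeR 4.0.16 (glmQLFit, glmQLFTest; R 4.3.3) was fitted per comparison to its 6 libraries, keeping genes whose readthrough reads there summed to 30 or more, with Benjamini-Hochberg adjustment over all genes tested, two-sided, threshold 0.05. The standard errors (SE) given for edgeR were calculated from its output, as the absolute log2 fold change over the square root of the quasi-likelihood F statistic. DESeq2 1.42.0 was an alternative. On counts simulated for IM 1h vs CTRLim (log2 fold change of 2), edgeR recovered 143 of 148 changed genes among the 867 fitted. Changed genes whose simulated counts fell under 30 reads are not among the 148. The counts were drawn with a fixed dispersion that was not estimated from these libraries, so recovery in the real counts may differ. It called 7 of 719 unchanged ones. Recovery of genes under the minimum of 30 reads was not tested, and 4 of the 7 genes were under it in that comparison. Ratios of pooled levels carry exact 95% intervals conditional on the summed count (SciPy 1.17.1), for counting error only. Transcripts were matched by identifier to GENCODE 44 (12704 of 13051), which may differ from the authors' annotation. Biological replicates are as labelled.

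The 7 genes and the lists were chosen with earlier results of these data known. Further genes were named by rule: the 3 profiles most like each gene, those next to the 7 by added level and by fold change, the nearest downstream genes, and per list those called and up to 3 others with most reads. Some results on other genes are not reported here.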

Additional observations from a re-analysis of the deposited data

Results flagged for a closer look

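POLR1H had opposite directions at the 2 imatinib times relative to the same CTRLim libraries, with a log2 fold change of 0.66 in IM 1h and -0.47 in IM 18h, neither of which passed the test. The difference between the times was tested directly, as IM 18h vs IM 1h, and was -1.12 (SE 0.347, adjusted p = 0.0141, edgeR), lower in all 3 IM 18h libraries. No group holds more than 3 libraries, so none was searched for single libraries far from the rest.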

How the results depend on the processing

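Counts of the 7 genes called in IM 1h vs CTRLim and IM 18h vs CTRLim were 0 under all 16 alternatives each. All 7 were in the fit only at a minimum of 10 reads or 1 read. The other fits held 2 or 3 of them in IM 1h vs CTRLim and 4 or 5 in IM 18h vs CTRLim. In IM 18h vs IM 1h the count of 1 (POLR1H) fell to 0 under TMM scaling, with readthrough reads as library size, under DESeq2 with either size factors and with all 18 libraries in the fit, and was 0 to 1 when 1 library was left out. The replicate block kept it at 1. Same-numbered libraries did not deviate together throughout, so the numbers were not taken to pair them. By replicate, r was -0.029 to 0.032 in IM 18h vs IM 1h and 0.25, -0.011 and 0.24 in JTE 1h vs CTRL. In KCl 45min vs CTRL it was 0.30, 0.037 and 0.22. In the comparisons with CTRL, replicates 1 and 3 match in shorter or longer reads and replicate 2 does not. The part of read length in these values was not tested. Genes of the related lists called in JTE 1h vs CTRL went from 0 to 1 with all 18 libraries (UBTF), 2 with all 6 untreated libraries as control, and lay between 0 and 3 when 1 library was left out, 3 being without JTE 1h replicate 1.

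The median log2 fold change of the 7 genes in JTE 1h vs CTRL (3.10) was 2.13 with all 6 untreated libraries as control, 2.12 to 3.25 when 1 library was left out and 3.06 with the replicate block. Libraries of 1 read length allowed no fit, and the median over the genes of the log2 ratio of pooled levels with 0.5 reads added, a measure not comparable with the fitted one where CTRL has 0 to 2 reads, was 2.17 in longer-read and 1.53 in shorter-read libraries. That of KCl 45min vs CTRL (1.14, 2 genes) was 1.65 with TMM, 1.64 with readthrough reads and 1.22 with mapped reads as library size, 0.72 and 0.54 at a minimum of 10 reads and 1 read, 1.22 and 1.66 under DESeq2 with library totals and its own factors, 1.20 with the replicate block, 0.34 with all 6 untreated libraries, and 1.16 to 1.83 in the 3 fits with 1 library left out (CTRL 1, CTRL 3 or KCl 45min 2) in which a gene kept 30 reads, 1 gene each. The pseudocounted ratio, which takes in all 7 genes whatever their reads, had a median of -0.083 in longer-read and -0.19 in shorter-read libraries, while the summed level of the 7 genes was 1.73 and 1.25 times that of CTRL there. Measure, genes and libraries all differ from the fit, so this is no turn of the fitted value. For CCDC12 it was 2.88 and 1.54 and for PTMA 1.30 and -0.19. The direction of single genes turned in IM 18h vs IM 1h for PTMA (0.11 with TMM, 0.062 with readthrough reads as library size, 0.15 with DESeq2's own factors, 0.035 without IM 1h replicate 1, 0.036 without IM 18h replicate 3, -0.51 to 0.036 leaving out 1 library) and SAP18 (-0.0040 without IM 1h replicate 3, to 0.37), and in IM 18h vs CTRLim for MKRN2 (-0.094 without CTRLim replicate 2, to 0.18), none of them called. Calls on the lists in libraries of 1 read length were not run, as too few libraries remain, and where no other cause is named the cause was not tested.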
